A study of Mus musculus with 32 samples.

Results

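Rosiglitazone was compared with vehicle in mouse fat cells that had been inflamed with TNF. The comparison was chosen by treatment label, as the 4 libraries labelled TNF_ROSI against the 4 labelled TNF_DMSO, so it uses 8 of the 32 libraries of the series. All 8 came from 3T3-L1 cells, a mouse preadipocyte line that was grown to confluence, turned into fat cells with insulin, dexamethasone and IBMX and kept on insulin afterwards. All 8 samples received TNF-alpha (TNF below), and rosiglitazone (ROSI) or its solvent DMSO (vehicle below), for 24 h before RNA was taken. The same pair of treatments without TNF (basal_ROSI and basal_DMSO, 4 libraries each) served to test where the response to the drug depended on TNF, and TNF with SCO or with CAP7 (4 libraries each) to test where rosiglitazone differed from the other compounds of the study. SCO is not defined in the labels, whose series title names an Artemisia scoparia extract, and the sources used here give neither the identity of CAP7 nor any dose. The cells are 1 established line, and the labels call the 4 libraries of a group biological replicates without naming cultures or days, so p-values measure the spread between these libraries. In bulk RNA of this kind, fewer cells of a type and less RNA per cell cannot be told apart.

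PPARγ (gene Pparg) is a nuclear receptor required for making fat cells. It binds DNA as a pair with RXR and, once a ligand such as rosiglitazone occupies it, recruits coactivators to genes for the uptake, storage and burning of fatty acids. TNF acts through its receptors and NF-κB to switch on chemokines and acute phase proteins, and in fat cells it also lowers the genes of lipid storage and insulin response. Thiazolidinediones, the drug class of rosiglitazone, are known both for raising fat cell genes and for damping inflammatory ones.

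The 8 libraries held between 15.1 and 37.7 M counts. Replicates correlated at r of at least 0.982 in log2 expression over the tested genes (Pearson, across genes, which are not independent replicates). Along the first principal component of the 8 libraries, with 47.5% of their variance, the 2 treatments lay apart, and along the second, with 10.7%, replicate 1 of TNF plus rosiglitazone, the shallowest library, stood apart from the other 3 of its group. Without it 2681 genes were called higher and 2151 lower. Levels below are CPM, counts adjusted for library depth with TMM factors, given for replicates 1 to 4 in that order, and changes are given as log2 ± its standard error, positive where rosiglitazone was higher. A gene is said to have risen or fallen where edgeR's quasi-likelihood test gave an adjusted p under 0.05 among 14428 genes. By that rule 2828 genes rose (19.6% of those tested) and 2347 fell (16.3%). The median change over all tested genes was -0.0011. Of the calls 739 were rises of at least 2-fold (5.12% of tested genes) and 306 were falls of at least 2-fold (2.12%). The libraries of the 2 groups did not overlap in 2705 genes that were higher (18.7%) and 2386 that were lower (16.5%). This balance depended on the scaling: with library sizes alone 1949 genes were called higher and 4205 lower, a split of 31.7% higher against 54.6% with TMM, and the median of all genes moved to -0.16. Fabp4 alone took 0.546% to 0.656% of the counts in vehicle libraries and 3.72% to 4.49% in rosiglitazone libraries.

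The cells expressed the defining genes of fat cells. The summed level of 25 fat cell markers ran from 20922 to 24196 CPM with vehicle and from 66960 to 82017 CPM with rosiglitazone, and 1 of the 25 (Lep, leptin) was at 0 in all 8 libraries. Most of the sum with rosiglitazone came from Fabp4, which averaged 5692 CPM with vehicle and 42189 CPM with rosiglitazone. The 30 preadipocyte and fibroblast markers, described further below, summed to 4841 to 4986 CPM with vehicle and 3286 to 3718 CPM with rosiglitazone. Markers of leukocytes and of endothelial and mural cells were low. Of 18 macrophage and leukocyte markers 7 were at 0 in all 8 libraries, among them Adgre1, Cd163 and C1qa, and their sum ran from 40.2 to 51.4 CPM with vehicle and from 28.8 to 32.96 CPM with rosiglitazone, most of it from Cd14. Cd68 and Cd14, which fat cells and fibroblasts can also express, were the leukocyte markers that fell, by 1.11 and 0.46, and the part of leukocyte RNA in the falls of inflammatory genes below was not tested beyond these levels. Endothelial and mural markers, 3 of 15 at 0, summed to between 16.4 and 22.1 CPM in the 8 libraries. Only 5 of the 15 passed the filter on low counts, of which none was called, against 1 called lower with DESeq2 or with library sizes alone.

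**Figure D1:**
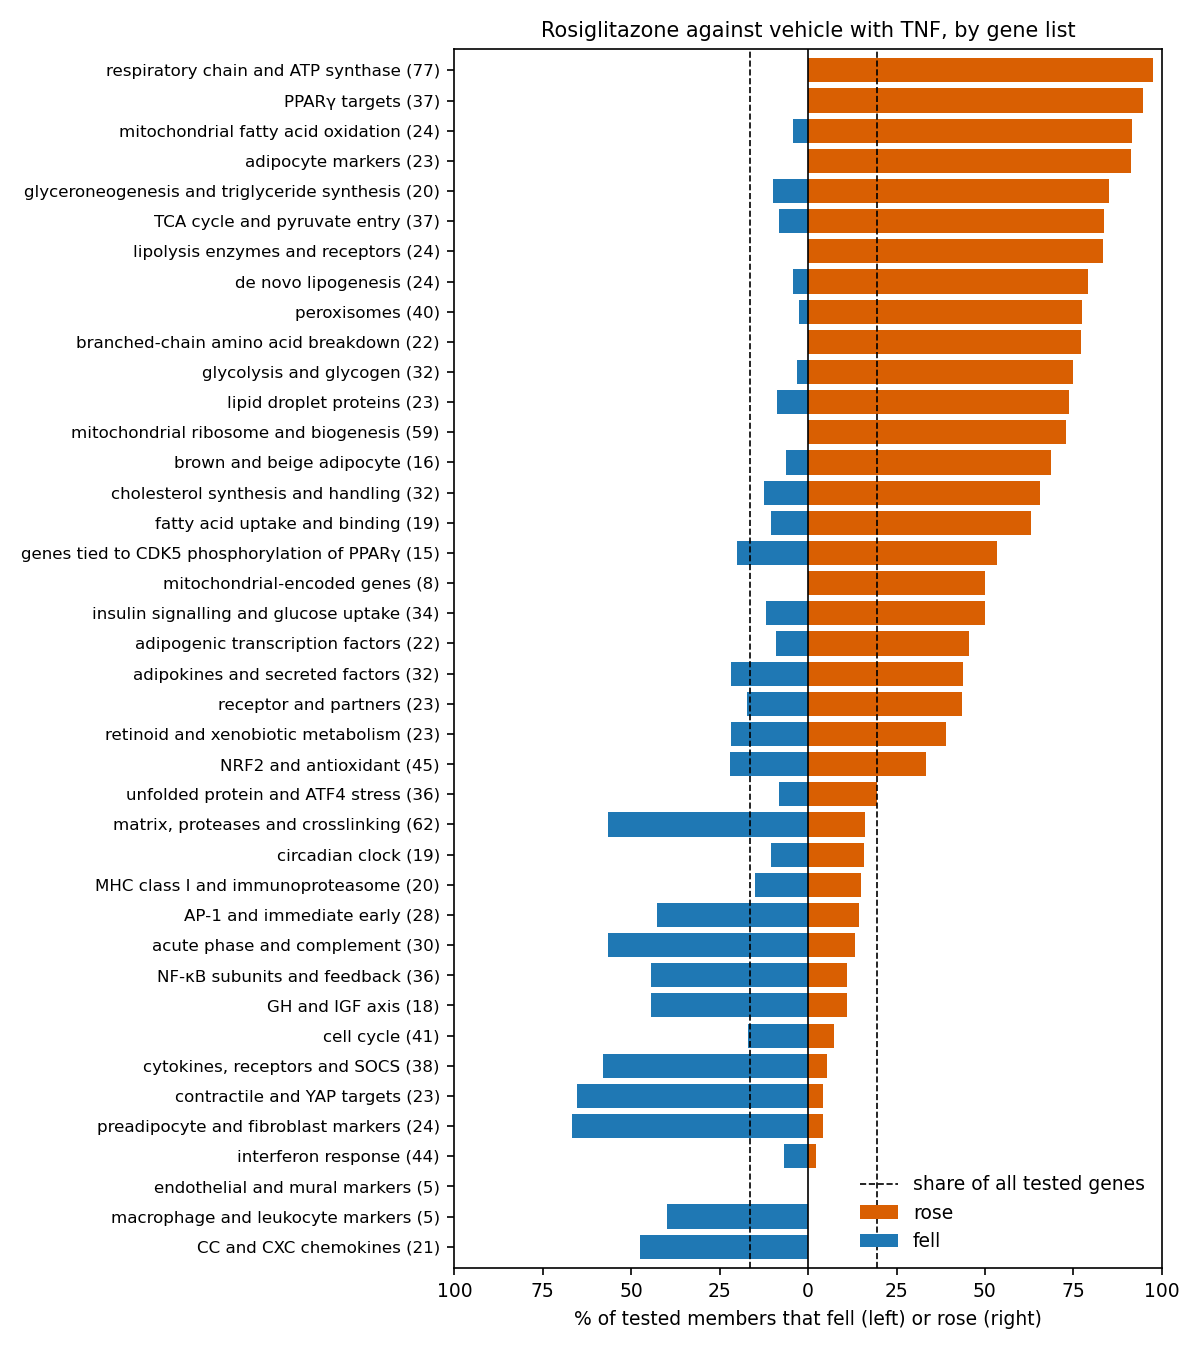
Share of the tested members of each gene list that rose (orange, to the right) or fell (blue, to the left) with rosiglitazone under TNF, in percent of the tested members, whose number stands beside each name. Dashed lines mark the shares over all 14428 tested genes, 19.6% higher and 16.3% lower. Lists of lipid storage and mitochondria lie to the right and lists of chemokines, cytokines and preadipocyte markers to the left.

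The largest increases and decreases against vehicle were picked among called genes without overlap between the groups. Their lack of overlap was therefore fixed by the choice. The largest increases by fold included genes that were close to undetected with TNF and vehicle. Acaa1b (ENSMUSG00000010651), a peroxisomal thiolase of fatty acid breakdown, stood at 0.289, 0.408, 0.520 and 0.600 CPM with vehicle and at 43.2, 32.7, 44.8 and 63.6 CPM with rosiglitazone, a log2 change of 6.63 ± 0.298 (adjusted p = 1.45e-20). Every rosiglitazone library was far above every vehicle library. Its near-identical copy Acaa1a can share its reads, so the split between the pair is uncertain. Pck1 (ENSMUSG00000027513), which makes the glycerol backbone of stored fat from pyruvate, went from 3.55, 4.84, 3.05 and 2.92 CPM to 226, 165, 204 and 266 CPM (5.93 ± 0.167), again with a wide gap. The X-linked twin genes Arxes1 and Arxes2, known from fat cells and so alike that their reads can be mixed up, rose by 4.72 ± 0.209 and 4.404 ± 0.101. For Arxes2 the vehicle libraries read 17.3, 16.3, 13.2 and 15.3 CPM and the rosiglitazone libraries 326, 271, 345 and 371 CPM. Clstn3 (4.62 ± 0.121), from whose locus fat cells also make a short form that acts at lipid droplets, and the glycosyltransferase gene B3galt2 (4.500 ± 0.159) followed. B3galt2 read 2.23, 1.27, 2.22 and 0.959 CPM and then 41.4, 33.7, 40.7 and 38.6 CPM, without overlap.

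Further genes among the 15 largest increases of genes that reached 16 CPM in either group were the keratin gene Krt79 (4.15), the small GTPase gene Arl4a (3.49), the hydrolase gene Cmbl (3.34), the mitochondrial carrier gene Slc25a34 (3.28), Nat8l, which makes N-acetylaspartate (3.17), the aldehyde dehydrogenase gene Aldh3b2 (3.11) and Abcc3, an export pump for organic anions (3.10 ± 0.287). Abcc3 was at 4.00, 1.73, 2.77 and 3.24 CPM with vehicle and at 22.5, 34.4, 23.9 and 20.9 CPM with rosiglitazone. TNF by itself had raised it (3.34 ± 0.485 in vehicle-treated cells). This and every other effect of TNF given here rests on the same TNF plus vehicle libraries that serve as controls for rosiglitazone. Among genes under 16 CPM the fatty acid elongase gene Elovl3 went from at most 0.0825 CPM, with 2 vehicle libraries at 0, to 2.42, 2.86, 4.61 and 4.500 CPM (6.29 ± 0.539), and Otop1, a proton channel, from 1.36, 0.713, 0.728 and 1.48 to 15.6, 11.2, 11.5 and 12.8 CPM (3.56 ± 0.346). Fsd2 (4.96) and Fabp12, a relative of the fatty acid binding proteins (3.76), were also among the 5 largest increases at low level.

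**Figure D2:**
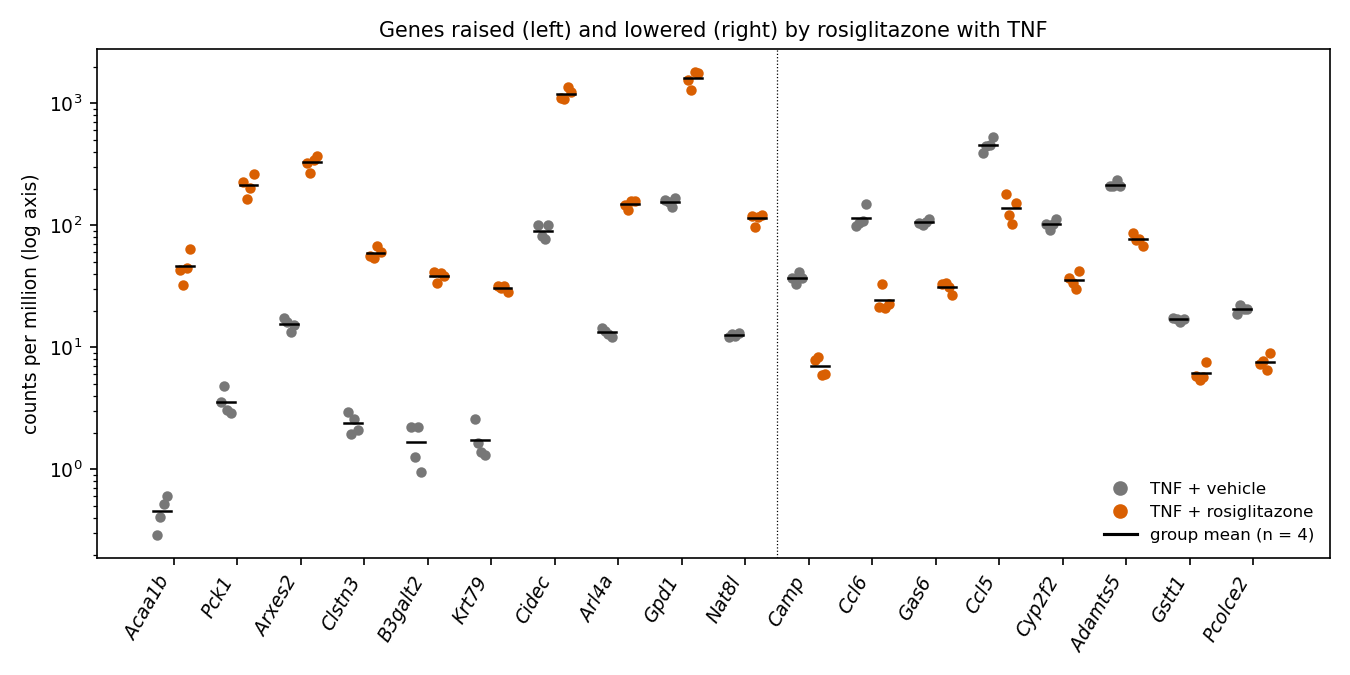
Levels (CPM, log axis) of 10 of the most raised and 8 of the most lowered genes that reached 16 CPM in either group, in the 4 TNF plus vehicle libraries (grey) and the 4 TNF plus rosiglitazone libraries (orange), 1 point per library and a bar at each group mean. The 18 genes were picked among genes without overlap between the groups. Acaa1b lies at 0.289 to 0.600 CPM against 32.7 to 63.6 CPM.

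The largest decreases were smaller in fold than the largest increases. Camp, which encodes the antimicrobial peptide cathelicidin, stood at 36.8, 33.1, 41.7 and 37.2 CPM with vehicle and 7.88, 8.41, 5.91 and 6.11 CPM with rosiglitazone (-2.40 ± 0.181), and the chemokine gene Ccl6 at 98.9, 105, 108 and 149 and 21.5, 32.8, 21.1 and 22.7 CPM (-2.23 ± 0.123). Replicate 4 of vehicle was the highest for Ccl6 and replicate 2 the highest of the rosiglitazone group, and the groups stayed apart. Gas6, the ligand of the Axl family receptors, read 104, 101, 107 and 112 and then 32.9, 33.5, 31.3 and 26.9 CPM (-1.77 ± 0.0982). Camp had been raised by TNF (4.898), whereas TNF had lowered Ccl6 (-2.49) and Gas6 (-1.56). The aggrecan protease gene Adamts5 fell by 1.49 ± 0.0923, from 211, 211, 234 and 209 CPM to 86.8, 76.5, 77.2 and 68.4 CPM. The glutathione transferase gene Gstt1 (-1.47), the procollagen processing gene Pcolce2 (-1.44), the sodium-calcium exchanger gene Slc8a1 (-1.44), the AMP deaminase gene Ampd3 (-1.43), the whey acidic protein domain gene Wfdc17 (-1.44) and the transcriptional corepressor gene Runx1t1 (-1.43) were also among the 15 largest decreases. At low level, the TNF family ligand gene Tnfsf15 fell from 2.10, 2.09, 2.43 and 2.32 CPM to 0.415, 0.304, 0.138 and 0.0536 CPM (-3.34 ± 0.715), and the Ras-like gene Rasl11a by 2.73 ± 0.221.

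The receptor that rosiglitazone binds was itself not called. Pparg (ENSMUSG00000000440) stood at 217, 213, 207 and 217 CPM with vehicle and at 199.8, 185, 183 and 210.3 CPM with rosiglitazone, with overlap (-0.14 ± 0.0784, 95% interval -0.30 to 0.02, adjusted p = 0.183), and its partner Rxra at -0.13 ± 0.0765 (95% interval -0.28 to 0.03). Both were called lower with library sizes alone (-0.29 for each, adjusted p = 0.00215 and 0.00185). Of 23 tested genes for the receptor, its partners, coactivators and corepressors 10 rose and 4 fell (median 0.07), and with library sizes alone 7 rose and 10 fell. The coactivator genes Ppargc1a and Ppargc1b, which drive mitochondrial genes, rose by 1.96 ± 0.151 and 1.66 ± 0.115, the first from 10.97, 7.90, 7.63 and 7.04 CPM to 24.9, 33.8, 40.3 and 30.4 CPM. The 4 rosiglitazone libraries spread more for this gene than the vehicle libraries, but did not overlap with them. Cited2, a transcriptional coregulator, fell by 1.02 ± 0.0680 and the coactivator genes Ncoa3 (-0.71), Crebbp (-0.34) and Ep300 (-0.34, a call lost without replicate 4 of rosiglitazone) fell as well.

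Among 22 adipogenic transcription factors 10 rose and 2 fell (median 0.23, 8 and 6 with library sizes alone). Cebpa, which holds cells in the mature fat cell state, rose from 49.6, 45.8, 48.3 and 52.5 CPM to 236, 194, 244 and 274 CPM (2.27 ± 0.0875), Klf15, a factor of glucose transporter and amino acid genes, from 11.6, 8.61, 8.11 and 8.55 to 21.5, 21.1, 22.7 and 26.7 CPM (1.32 ± 0.107), and Srebf1, the regulator of lipogenic genes, by 0.63 ± 0.0867. None of these 3 genes overlapped between the groups. Cebpd, an early factor of differentiation that also answers to inflammation, went the other way, from 87.0, 105, 98.5 and 107 to 52.1, 56.6, 45.4 and 43.5 CPM (-1.01 ± 0.101), as did Klf2 (-0.55). Nr1h3, the oxysterol receptor LXRα, rose by 0.47 ± 0.0817.

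Of 37 tested PPARγ target genes 35 rose and none fell (median 1.92), 31 of them at least 2-fold, and the 2 without a call were Cbl and Fgf21. Many take part in bringing fatty acids into the cell. Fabp4, which carries fatty acids inside fat cells, stood at 5095, 5825, 5524 and 6325 CPM with vehicle and at 42406, 38783, 39825 and 47743 CPM with rosiglitazone (2.89 ± 0.108), and Cd36, the fatty acid transporter, at 291, 306, 319 and 349 and 1256, 1284, 1350 and 1375 CPM (2.06 ± 0.0658). Both were several-fold higher in every rosiglitazone library. Lpl, the lipase that frees fatty acids from circulating lipoproteins, changed less, from 3634, 3809, 3814 and 3939 to 6669.9, 5465, 6768 and 7922 CPM (0.82 ± 0.0818). Acsl1, which activates fatty acids with coenzyme A, rose by 1.92 ± 0.0852, and Angptl4, the inhibitor of Lpl, by 0.93 ± 0.0610. Of 19 uptake and binding genes 12 rose and 2 fell (median 0.37), namely Acsl5 (-0.45) and the receptor gene Lrp1 (-0.35).

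Genes that supply glycerol and join it to fatty acids rose in 17 of 20 cases and fell in 2 (median 1.28). Gpd1, which makes glycerol 3-phosphate, went from 160.2, 155, 142 and 167 CPM to 1557, 1297, 1796 and 1790.2 CPM (3.37 ± 0.0998), Aqp7, the glycerol channel, from 10.5, 10.3, 10.6 and 8.32 to 67.1, 56.6, 71.4 and 74.1 CPM (2.76 ± 0.0967) and Gk, glycerol kinase, from 6.85, 7.13, 7.18 and 5.36 to 33.9, 26.4, 32.97 and 35.6 CPM (2.28 ± 0.129). The rosiglitazone libraries of each lay well clear of the vehicle libraries, with replicate 2 the lowest of them. The acyltransferase genes Gpat3 (2.60 ± 0.0980) and Dgat2 (1.38 ± 0.0765), which carry out the first and the last step of triglyceride synthesis, rose as well. Dgat2 read 109, 104, 91.8 and 112 CPM and then 235, 266, 310.3 and 276 CPM. The 2 genes that fell, Lpin2 (-0.33) and Lpin3 (-0.71), are 2 of the 3 lipin phosphatases. The call of Lpin3 was lost without replicate 1 or replicate 3 of either group (-0.57 to -0.69).

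Proteins on the lipid droplet followed the same direction, with 17 of 23 genes higher and 2 lower (median 1.05). Cidec, which fuses droplets, went from 101, 82.1, 77.3 and 99.9 CPM to 1109, 1087, 1371 and 1239 CPM (3.74 ± 0.0845), and its relative Cidea, also known from brown fat, from 1.39 to 14.5 CPM in the mean (3.34 ± 0.243). The coat protein gene Plin1 rose by 1.58 ± 0.0614 and Plin4 by 1.47 ± 0.0770. Plin2, the coat of small droplets in most cell types, rose by 1.12 ± 0.0751 from 367, 359, 319.8 and 382 CPM to 789, 799, 742 and 774 CPM, on top of a rise with TNF alone (0.75). The caveola gene Cavin2 (2.75) and the droplet budding gene Fitm2 (2.17) rose too. The 2 that fell were Plin3 (-0.24) and Hsd17b11 (-0.26), a call lost without replicate 2 of vehicle (-0.24) or replicate 2 (-0.22) or 3 (-0.19) of rosiglitazone.

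Lipolysis, the release of fatty acids from the droplet, involves lipases, their inhibitors and the receptors that control them. Of 24 tested genes 20 rose and none fell (median 1.47). The lipases Pnpla2, which cuts the first fatty acid, and Lipe, which cuts the second, rose by 1.84 ± 0.0729 and 2.33 ± 0.0804, with Lipe at 286, 224, 237 and 269 and 1218, 1178, 1350.2 and 1352 CPM. G0s2, the inhibitor of Pnpla2, rose along with it (2.56 ± 0.0996). Receptors that hold lipolysis back rose as well. Ffar2, a receptor for short fatty acids, went from 63.1, 64.7, 57.8 and 66.9 CPM to 357, 293, 306 and 358 CPM (2.38 ± 0.0754) and Hcar2, the niacin receptor, by 2.21 ± 0.113. Adrb3, the receptor through which catecholamines start lipolysis, rose from 9.36, 7.54, 6.55 and 7.12 to 17.6, 14.8, 13.3 and 24.4 CPM (1.18 ± 0.142). Without TNF the level of Adrb3 with vehicle was 288 ± 16.02 CPM (SD, n = 4), so all 8 libraries with TNF were far lower.

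Genes that make fatty acids from glucose and acetate rose in most cases. Of 24 genes of de novo lipogenesis 19 rose and 1 fell (median 0.63). Acss2, which activates acetate, rose by 1.57 ± 0.0861, Thrsp, a regulator of lipogenesis, by 2.26 ± 0.161, from 9.03, 6.57, 7.39 and 9.27 CPM to 36.0, 24.2, 47.4 and 47.5 CPM. Acaca, acetyl-CoA carboxylase, rose by 0.79 ± 0.104, Fasn, fatty acid synthase, by 0.64 ± 0.117 and the desaturase gene Scd1 by 0.78 ± 0.0858. Scd1 read 2294, 2077, 2128 and 2373 CPM with vehicle and 3206, 4054, 4521 and 3492 CPM with rosiglitazone. Elovl6, which lengthens newly made palmitate, was the gene that fell (-0.75 ± 0.155), from 15.1, 19.4, 19.6 and 14.3 to 9.40, 11.5, 8.57 and 11.3 CPM. Of 32 genes for cholesterol 21 rose and 4 fell (median 0.49), led by Scarb1, the receptor for high-density lipoprotein (1.76 ± 0.0695), and Pmvk (1.32) and Dhcr7 (1.18), enzymes of cholesterol synthesis. The falls were in genes that move cholesterol or store it as esters, Npc1 (-0.68), Npc2 (-0.29), Abca1 (-0.21) and Soat1 (-0.43), where the call of Abca1 was lost without vehicle replicate 3 or rosiglitazone replicate 1, 3 or 4.

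Genes for burning fatty acids rose in mitochondria and in peroxisomes. Of 24 genes of mitochondrial fatty acid oxidation 22 rose and 1 fell (median 0.97), with Acadm, the medium-chain dehydrogenase, at 1.52 ± 0.0631 and Hadhb, of the trifunctional enzyme, at 1.68 ± 0.0787. The gene that fell, Oxct1 (-0.44), encodes an enzyme that uses ketone bodies. Of 40 peroxisome genes 31 rose (median 0.80, 28 higher and 3 lower with library sizes alone) and 1, Phyh, fell (-0.45). The catalase gene Cat rose by 1.11 ± 0.0682. The fatty acid transporter of the peroxisome Abcd2 (1.78) and the carnitine acetyltransferase gene Crat (1.80) rose as well.

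Nuclear genes of the respiratory chain rose almost throughout. Of 77 genes of the respiratory chain and ATP synthase 75 rose and none fell (median 0.72, range 0.22 to 1.91). Cox8b, a subunit of cytochrome oxidase, went from 51.5, 46.0, 41.9 and 51.7 CPM to 123, 126, 134 and 137 CPM (1.45 ± 0.0778). Of 37 genes of the TCA cycle and pyruvate entry 31 rose and 3 fell (median 0.74), led by Idh3a, a subunit of isocitrate dehydrogenase, at 66.8, 73.2, 63.7 and 72.0 and 297, 292, 357 and 347 CPM (2.23 ± 0.0759). The kinase genes Pdk4 (2.83 ± 0.150) and Pdk2 (1.74 ± 0.0863), whose products switch pyruvate dehydrogenase off, rose, while the phosphatase gene Pdp1, whose product switches it on, fell (-1.0 ± 0.173), as did Idh2 (-0.26) and Pdk3 (-0.21, a call lost without vehicle replicate 2 or 4 or rosiglitazone replicate 1 or 4). Mitochondrial ribosome and biogenesis genes rose in 43 of 59 cases with none lower (median 0.33), and in 25 with library sizes alone. The nuclear receptor gene Esrra led them (1.27 ± 0.0804). Transcripts of the mitochondrial genome itself could be read only in part. Of 13 listed 5 did not pass the filter on low counts, among them mt-Co2, mt-Atp6 and mt-Co3 (at most 0.255 CPM). The 8 tested moved little, with 4 higher and none lower (median 0.22, 2 higher with library sizes alone). The 4 were mt-Nd1, mt-Nd5, mt-Co1 and mt-Cytb, the last not without vehicle replicate 2 or 4 or rosiglitazone replicate 4. The level of mt-Co1 was 5873, 5148, 5376 and 5571 CPM and 6224, 7137, 7024 and 6866 CPM (0.31 ± 0.0655).

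Breakdown of branched-chain amino acids, a pathway that is active in fat cells, was higher in 17 of 22 genes with none lower (median 0.44). Bckdhb, a subunit of the rate-setting dehydrogenase, went from 135, 148, 144 and 154 to 408, 336, 369 and 451 CPM (1.43 ± 0.0918), and Bcat2, the transaminase of the first step, rose by 0.44 ± 0.0866. Of 16 tested genes of brown and beige fat cells 11 rose (median 1.31, 11 higher and 2 lower with library sizes alone or DESeq2) and 1, the creatine transporter gene Slc6a8, fell (-0.71). The potassium channel gene Kcnk3 rose by 1.76 ± 0.104. Ucp1, the uncoupling protein that defines brown fat, did not pass the filter on low counts.

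In the insulin pathway 17 of 34 genes rose and 4 fell (median 0.30, 12 and 9 with library sizes alone). Those that fell were Socs3 (-0.58), Trib3 (-0.59) and the phosphatase gene Ptpn1 (-0.22, a call lost without replicate 1 of rosiglitazone), which are known as brakes on insulin signalling, and Stx4a (-0.20), part of the machinery that brings GLUT4 to the surface. Slc2a4, the insulin-responsive glucose transporter GLUT4, rose from 30.9, 26.9, 25.2 and 31.7 CPM to 75.4, 66.6, 92.1 and 101 CPM (1.55 ± 0.102), and Irs2, a substrate of the insulin receptor, by 1.26 ± 0.0683. The receptor gene Insr (0.52 ± 0.0896) and Irs1 (0.59 ± 0.0765) rose by less. Of 32 glycolysis and glycogen genes 24 rose (median 0.53, 20 higher and 3 lower with library sizes alone) and 1, the hexokinase gene Hk1, fell (-0.58), with the glycolytic activator gene Pfkfb3 at 1.98 ± 0.123 and the glycogen targeting gene Ppp1r3d at 1.84 ± 0.103.

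Hormones and other factors that fat cells secrete went both ways, with 14 of 32 tested genes higher and 7 lower (median 0.24). Adipoq, which encodes adiponectin, went from 2669, 2655, 2699.6 and 3192 CPM to 5159, 4301, 5078 and 5307 CPM (0.82 ± 0.0715), and Nrg4, a secreted ligand of ErbB receptors, from 2.89, 2.90, 2.84 and 3.28 to 16.5, 14.8, 17.1 and 18.5 CPM (2.49 ± 0.144). Replicate 4 of vehicle was the highest of its group for both, without reaching the rosiglitazone libraries. Retn, resistin, rose by 0.78 ± 0.113. Cfd, adipsin or complement factor D, was not called (-0.02 ± 0.0897, 95% interval -0.20 to 0.16). A list of 17 genes tied to phosphorylation of PPARγ by the kinase CDK5, a modification that TNF is known to induce and that PPARγ ligands block, held 15 tested genes, of which 8 rose and 3 fell (median 0.36, 8 and 5 with library sizes alone). Selenbp1, a selenium-binding protein gene, rose by 1.22 ± 0.142 and the imprinted gene Peg10 by 1.98 ± 0.117. Cyp2f2, a cytochrome P450 gene, fell from 104, 91.5, 102 and 113 CPM to 37.0, 33.4, 30.2 and 42.1 CPM (-1.53 ± 0.123), and the clock gene Nr1d2 (-0.31) and the helicase gene Ddx17 (-0.46) fell less.

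Inflammatory genes fell in part. Of 21 tested chemokine genes and their decoy receptors 10 fell and none rose (median -0.97). Ccl5, which attracts T cells and monocytes, stood at 394, 447, 453 and 533 CPM with vehicle and 179.9, 121, 103 and 154 CPM with rosiglitazone (-1.72 ± 0.184), and Ccl2, which attracts monocytes, at 2228, 2287, 2486 and 2456 and 1398, 1194, 1002 and 1210.3 CPM (-0.98 ± 0.123). Neither overlapped between the groups. Cxcl12 fell by 0.97 ± 0.0845 and the membrane-bound chemokine gene Cx3cl1 by 1.17 ± 0.126. Cxcl10, an interferon-induced chemokine, stood at 237, 261, 379 and 449.8 and 336, 192, 119 and 335 CPM and was not called (-0.44 ± 0.276, 95% interval -1.0 to 0.12). Replicates 1 and 4 of rosiglitazone lay among the vehicle libraries for this gene and replicates 2 and 3 below them. Without the filter on low counts Cxcl10 was called (adjusted p = 9.08e-08).

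Of 38 cytokine, receptor and SOCS genes 22 fell and 2 rose (median -0.45, 28 and 1 with library sizes alone), namely Tnfrsf1a (0.24) and Tgfb2 (0.44). Tnfrsf1a, the main TNF receptor, was not called with library sizes alone (0.08, adjusted p = 0.214), whereas the second receptor gene Tnfrsf1b fell by 0.64 ± 0.109. Csf1, the macrophage growth factor, fell from 372, 402, 399.8 and 405 CPM to 244, 217, 197 and 211 CPM (-0.86 ± 0.0817). Il6st, the shared receptor chain of the IL-6 family, fell by 0.57 ± 0.0606, and Jak2, a kinase of cytokine receptors, by 0.75 ± 0.0907. Il6 was low in both groups, at 4.87, 5.91, 6.17 and 7.20 and 2.77, 3.47, 3.40 and 1.82 CPM (-1.06 ± 0.353), and its call was lost without replicate 4 of rosiglitazone (-0.90, adjusted p = 0.0672).

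Within NF-κB, the transcription factor that TNF activates, 16 of 36 subunits, kinases and feedback inhibitors fell and 4 rose (median -0.21, 26 and 2 with library sizes alone). Of the calls 1 reached 2-fold, that of Tnip3 at under 1 CPM (-2.54 ± 0.769). Ripk2 fell by 0.72 ± 0.0726 and the ubiquitin ligase gene Birc2 by 0.82 ± 0.0833, while Tank, an inhibitor of the pathway, rose by 0.59 ± 0.0693. The other rises were Tnfaip8 (0.33), the RNase gene Zc3h12a (0.36, lost with library sizes alone or without vehicle replicate 1, 3 or 4 or rosiglitazone replicate 1 or 4) and Cflar, an inhibitor of cell death (0.28, not called with library sizes alone). Nfkbia, the inhibitor IκBα that NF-κB itself induces, stood at 1893, 1831, 1889 and 1968 and 1741, 1748, 1608 and 1495 CPM (-0.20 ± 0.0673), a call lost without replicate 4 of rosiglitazone (-0.16, adjusted p = 0.0898). Tnfaip3, the feedback inhibitor A20, was not called (-0.20 ± 0.105, 95% interval -0.41 to 0.01), but was with library sizes alone, with limma-voom and with the 8 libraries fitted alone.

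Acute phase and complement genes divided. Of 30 tested 17 fell and 4 rose (median -0.53). Saa3, serum amyloid A3, fell from 5704, 6444, 6479 and 7062 CPM to 3595, 3083, 2636 and 3235 CPM (-1.03 ± 0.130), and Ptx3, a pattern recognition protein, from 582, 649.9, 705 and 681 to 304, 289.6, 218 and 231 CPM (-1.33 ± 0.128). All 4 rosiglitazone libraries were lower for both. The 4 genes that rose were Hp, Hpx, Cfb and Steap4. Hp, haptoglobin, which binds free haemoglobin, went from 12290, 11687, 11531 and 13163 CPM to 20842, 19878, 20062 and 21236 CPM (0.75 ± 0.0820), Hpx, hemopexin, which binds free haem, from 549, 595, 635 and 657 to 1719, 1772, 1379 and 1431 CPM (1.37 ± 0.0972), and Steap4, a metalloreductase induced by inflammation in fat cells, from 22.1, 27.1, 29.1 and 33.4 to 76.3, 81.4, 55.8 and 71.0 CPM (1.34 ± 0.122). TNF with vehicle had raised all 4, by 3.94 ± 0.0919, 6.90 ± 0.136, 5.92 ± 0.129 and 0.84 ± 0.131, so each was higher still with rosiglitazone.

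**Figure D3:**
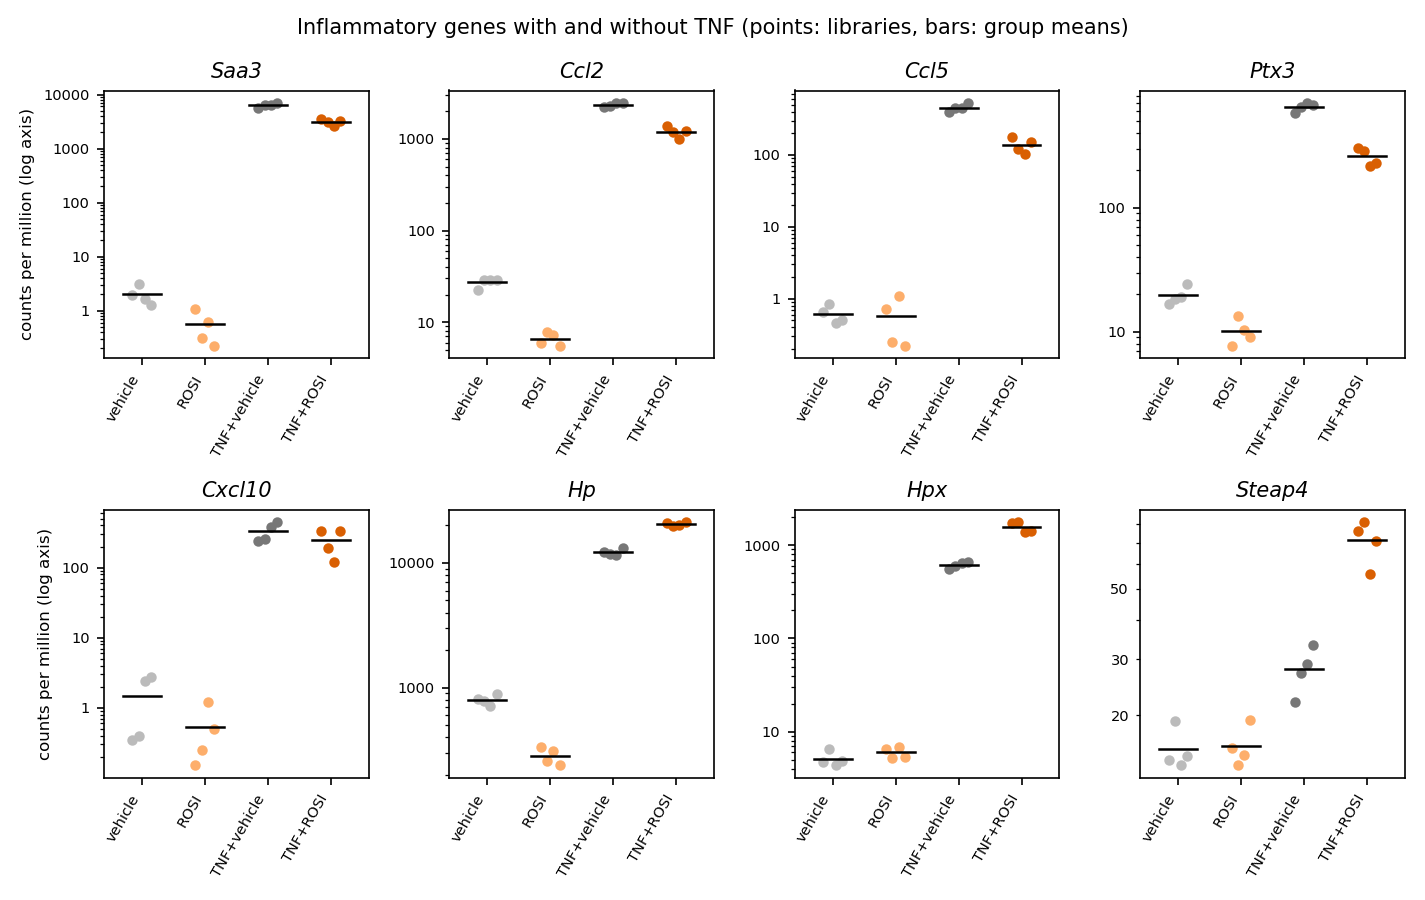
Levels (CPM, log axis) of 8 inflammatory genes in the 4 libraries of each of 4 groups, vehicle or rosiglitazone without TNF and with TNF, 1 point per library and a bar at the group mean. Saa3, Ccl2, Ccl5 and Ptx3 lie lower with rosiglitazone under TNF, Hp, Hpx and Steap4 lie higher, and Cxcl10 overlaps, at 237 to 450 CPM against 119 to 336 CPM.

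Most interferon response genes had no call. Of 44 tested 1 rose and 3 fell (median -0.21), against 1 and 7 with library sizes alone and 1 and 9 with limma-voom, and 1 and 3 without replicate 1 of rosiglitazone. TNF with vehicle had raised all 44, against 26.7% of all tested genes. Their summed level varied within the groups, at 3984, 4010.3, 4400 and 5883 CPM with vehicle and at 4749, 3932, 2606 and 4418 CPM with rosiglitazone, so the groups overlapped. The falls were Ifit2 (-1.06), Gbp5 (-0.72) and Irf1. Irf1, a transcription factor of this response, fell from 425, 442, 449 and 504 CPM to 344, 313, 258 and 318 CPM (-0.56 ± 0.0758). Of 20 genes of MHC class I and the immunoproteasome 3 rose (median -0.05, 3 higher and 8 lower with library sizes alone, and shares near those of all genes), namely H2-K1 (0.45), H2-D1 (0.42) and the proteasome activator gene Psme2 (0.53), and 3 fell, H2-T23 (-0.46, lost without replicate 3 of rosiglitazone), H2-M3 (-0.77) and the peptide trimming gene Erap1 (-0.42). The H2 genes form a family of near-identical members, so their reads are uncertain.

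Matrix, contractile and preadipocyte genes fell more often than they rose. Of 62 matrix genes and their proteases 35 fell and 10 rose (median -0.37, 41 and 6 with library sizes alone), with Mmp14 at -1.11, Adamts1 at -1.06 and Mmp3 at -0.59 ± 0.133. The rises included the basement membrane collagen gene Col15a1 (0.84). Of 23 contractile and YAP target genes 15 fell (median -0.60) and 1, Amotl2, rose (0.60), with smooth muscle actin, Acta2, at -0.71 ± 0.157 and tropomyosin, Tpm1, at -0.70 ± 0.0651. Of 24 preadipocyte and fibroblast markers 16 fell (median -0.53) and 1, the Wnt ligand gene Wnt5a, rose (0.31, a call lost with library sizes alone or without vehicle replicate 2 or 4 or rosiglitazone replicate 1 or 3). The summed level of the 30 listed was 4841 to 4986 CPM with vehicle and 3286 to 3718 CPM with rosiglitazone, and the part of this difference in the falls of matrix and contractile genes was not tested. Vcam1, an adhesion molecule that TNF induces, fell from 909, 904, 905 and 966 CPM to 503, 469, 378 and 487 CPM (-1.0 ± 0.0957), and the receptor genes Pdgfrb and Pdgfra by 1.08 ± 0.106 and 0.69 ± 0.124. Dlk1, the classic preadipocyte marker, was not called (-0.03 ± 0.0859, 95% interval -0.20 to 0.15).

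In the growth hormone and IGF axis 8 of 18 genes fell and 2 rose (median -0.27). Igfals, the acid-labile subunit of the IGF complex, fell by 0.82 ± 0.103, the receptor gene Igf1r by 0.91 ± 0.108 and Socs2, a brake on growth hormone signalling, by 0.77 ± 0.0897. Igf1 rose from 132, 159, 147 and 160.4 CPM to 202, 181, 185 and 219.7 CPM (0.39 ± 0.0792), and Stat5a, the factor that growth hormone activates, by 0.40 ± 0.0798.

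Other lists went both ways. Of 45 NRF2 and antioxidant genes 15 rose and 10 fell (median 0.08, 13 and 15 with library sizes alone), with Taldo1, transaldolase, at 1.43 ± 0.0784. The quinone reductase gene Nqo1, a standard NRF2 target, read 38.4, 38.4, 37.2 and 41.1 CPM and 27.3, 36.0, 27.2 and 32.6 CPM (-0.33 ± 0.106), a call lost without replicate 3 of rosiglitazone (-0.27, adjusted p = 0.0619). Hmox1, haem oxygenase, was not called (-0.47 ± 0.202, 95% interval -0.87 to -0.06 before adjustment, adjusted p = 0.0701). Of 36 genes that answer unfolded proteins or amino acid stress 7 rose and 3 fell (median 0.07, 5 and 8 with library sizes alone, 7 and 5 with DESeq2). By the main fit the share of rises was near the 19.6% over all genes, and the share of falls was below 16.3%. Dnajb9, a chaperone of the endoplasmic reticulum, stood out from the rest of this list at 54.1, 50.5, 50.04 and 56.1 and 206, 216, 211 and 202 CPM (1.99 ± 0.0640), beside Xbp1 at 0.58 ± 0.0567. The falls were Trib3, Sdf2l1 (-0.40) and Edem1 (-0.21). Among 23 retinoid and xenobiotic genes 9 rose and 5 fell (median 0.12), with Retsat, a retinol saturase and known PPARγ target, at 68.2, 66.8, 64.1 and 77.9 and 358, 314, 335 and 383 CPM (2.33 ± 0.0644) and Ephx1, an epoxide hydrolase, at -0.94 ± 0.122. Of 28 immediate early genes 12 fell and 4 rose (median -0.42, 19 and 1 with library sizes alone), with Klf6 at -0.99. The rises were the phosphatase gene Dusp4 (1.01), Btg2 (0.32), Klf10 (0.31) and Fosl1 (0.26), of which 1, Dusp4, was called with library sizes alone. The call of Btg2 was also lost without vehicle replicate 2 or 3 or rosiglitazone replicate 2 or 3, and that of Fosl1 without vehicle replicate 2, 3 or 4 or rosiglitazone replicate 3. Of 41 cell cycle genes 3 rose and 7 fell (median -0.10), a share of falls near that over all genes, against 17 falls with library sizes alone and 11 with limma-voom. The inhibitor gene Cdkn2c rose from 20.3, 19.2, 19.8 and 19.5 CPM to 68.9, 65.1, 86.1 and 75.1 CPM (1.91 ± 0.0977), beside Cdkn1a (0.63) and Ccnd2 (0.43). Of 19 clock genes 3 rose, Clock (0.41), Cry2 (0.41) and Nfil3 (0.28), and 2 fell, Nr1d2 and Bhlhe40 (-0.58, list median 0.02), shares close to those of all genes, and with library sizes alone 1 rose and 3 fell. The call of Cry2 was lost without vehicle replicate 2 and that of Nfil3 without vehicle replicate 1 or 2 or rosiglitazone replicate 1, 2 or 3.

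Whether TNF changed the response to rosiglitazone was asked with the interaction, the effect with TNF minus the effect without it. It was called in 2108 genes, 1458 with a more positive effect with TNF (10.1% of tested genes) and 650 with a more negative one (4.51%). The 8 libraries of the comparison without TNF are other libraries, although all 16 share 1 scaling and 1 fit. There, rosiglitazone raised 2658 genes (18.4%) and lowered 2741 (19%). The 2 effects correlated at r = 0.49 and rho = 0.52 over the 14428 tested genes, which are not independent of each other. Of the genes called in both states 3039 moved the same way, which is 58.7% of the calls with TNF and 56.3% of those without, and 199 moved opposite ways.

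The genes that moved opposite ways included several of lipid synthesis. Of the 199, 135 rose with TNF and fell without it and 64 did the reverse. The interaction was called in all 199. It is the difference of the same 2 effects, so opposite calls all but fix that result and it adds no support. Dgat2 fell without TNF by 0.65 ± 0.0751, from 368 ± 14.3 to 235 ± 11.1 CPM (SD, n = 4). With rosiglitazone its level was 272 ± 31.2 CPM with TNF, where vehicle gave 104 ± 8.99 CPM. Scd1 (-0.93 ± 0.0859), Thrsp (-0.82 ± 0.136), Klf15 (-0.71 ± 0.0980), Srebf1 (-0.50 ± 0.0869), Adrb3 (-1.01 ± 0.116), Bcat2 (-0.45 ± 0.0850), Irs1 (-0.29 ± 0.0745), Selenbp1 (-0.70 ± 0.128) and Igf1 (-0.38 ± 0.0786) also fell without TNF and rose with it. Haptoglobin, Hp, fell from 795 ± 73.2 to 285 ± 44.7 CPM without TNF (-1.48 ± 0.0839), against its rise with TNF, an interaction of 2.23 ± 0.117 (adjusted p = 4.80e-17). In the other direction, Pim1, a survival kinase, rose without TNF (1.07 ± 0.152) and fell with it (-0.57 ± 0.123). Pparg and Rxra fell without TNF, by 1.13 ± 0.0789 and 0.98 ± 0.0767, and the interaction was called for both (0.99 ± 0.111 and 0.85 ± 0.108).

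The effect of rosiglitazone on fat cell genes was more positive with TNF in most of them. TNF itself, compared with no TNF in vehicle, changed 54.2% of all genes. It lowered all 23 tested fat cell markers, and lowered 30 and raised 3 of 37 PPARγ targets. With rosiglitazone the summed fat cell markers averaged 73450 CPM with TNF and 105380 CPM without. Fabp4 alone gave 42189 CPM with TNF and 45168 CPM without, so most of the gap lay in the other markers. The interaction was called higher in 22 of 23 tested fat cell markers (all but Acsl1), including Pparg and Cfd, which did not rise with TNF. Among 37 PPARγ targets it was called higher in 29 and lower in 2, beside 10.1% and 4.51% over all genes. The 2 lower ones, Plin2 (-0.98 ± 0.106) and Angptl4 (-1.0 ± 0.0864), had both been raised by TNF alone (0.75 and 1.96). The TNF effect and the interaction share both vehicle groups with opposite sign, so their values are tied in part by construction. For Pck1 the effect was 2.91 ± 0.135 without TNF and 5.93 ± 0.167 with it, and for Acaa1b 3.56 ± 0.256 and 6.63 ± 0.298. The final level of Pck1 with rosiglitazone was nevertheless lower with TNF, at 215 ± 42.4 CPM against 364 ± 22.8 CPM, whereas Acaa1b reached 46.1 ± 12.8 against 24.0 ± 2.51 CPM. B3galt2 changed by 0.45 ± 0.115 without TNF and by 4.500 ± 0.159 with it, from a level of 58.0 ± 5.62 CPM without TNF. Respiratory chain genes had the interaction higher in 35 of 77 cases and lower in none and branched-chain amino acid genes in 16 of 22 with none lower.

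The inflammatory lists were examined in the same way. The median of the interaction was 0.34 over 21 chemokine genes and 0.06 over 44 interferon genes, beside 0.06 over all genes. It was called higher in 3 chemokine genes and lower in 0, and in 1 and 1 interferon genes. Some of these genes were near 0 without TNF, such as Ccl5 (0.614 CPM with vehicle), whose interaction was uncertain (-1.64 ± 0.695, not called). The calls included Ccl2, with a less negative effect with TNF (1.08 ± 0.201), and Irf1, with a more negative one (-0.59 ± 0.110). Without TNF the level of Ccl2 was 27.4 ± 3.29 CPM with vehicle and 6.59 ± 1.08 CPM with rosiglitazone, so the drug lowered it in both states. In the acute phase list, where Hp and Hpx stand, it was higher in 11 of 30 genes and lower in 1, Pla2g2e (-1.20). Hmox1 rose without TNF (1.37 ± 0.206) and had the interaction at -1.83 ± 0.288, and the stress genes Atf3 (-1.85 ± 0.263) and Ppp1r15a (-1.71 ± 0.300) and the scavenger receptor gene Olr1 (-1.72 ± 0.252) were also among the largest negative differences. Olr1 rose in both states, to 197 ± 14.03 CPM from 42.3 ± 1.49 CPM with TNF and from 0.787 ± 0.310 to 12.6 ± 0.604 CPM without. Of 36 stress response genes 9 had the interaction lower and 3 higher (Dnajb9, 0.92, Xbp1, 0.78, and Cebpg, 0.39). Of 28 immediate early genes it was lower in 11 and higher in Ier5 (0.69) and Klf10 (0.37, a call lost when several single libraries were left out, at 0.31 to 0.36).

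**Figure D4:**
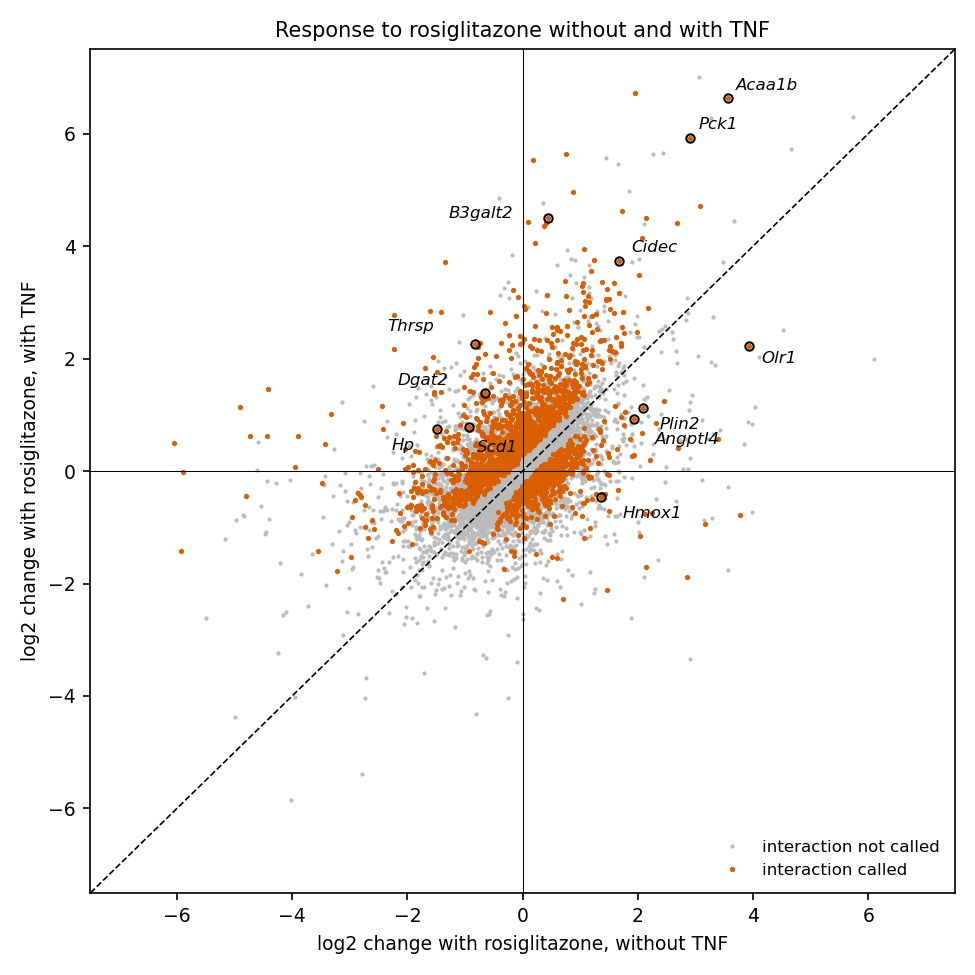
Log2 change with rosiglitazone in 14428 genes without TNF (x axis) and with TNF (y axis), with genes whose interaction was called in orange and the diagonal of equal effects dashed. Pck1, Acaa1b, Cidec and B3galt2 lie above the diagonal, Plin2, Angptl4, Hmox1 and Olr1 below it, and Dgat2, Scd1, Thrsp and Hp in the quadrant of a fall without and a rise with TNF.

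Rosiglitazone was last set against the other 2 compounds, all with TNF and at doses that the labels do not state, so the values compare the treatments as applied and not matched doses. Against SCO 1246 genes were higher with rosiglitazone (8.64%) and 828 lower (5.74%), and against CAP7 735 were higher (5.09%) and 502 lower (3.48%). Without replicate 4 of rosiglitazone 530 genes were lower than with SCO, and with the 8 libraries fitted alone 422 were higher than with CAP7. PPARγ targets were higher with rosiglitazone than with SCO in 32 of 37 cases and than with CAP7 in 29, with none lower in either. Among the largest differences over all genes were Acaa1b (2.69 ± 0.212 against SCO and 2.85 ± 0.214 against CAP7), Pck1 (1.79 ± 0.128 and 1.23 ± 0.126) and Gk (1.60 ± 0.124 and 1.46 ± 0.123). Gk averaged 10.6 ± 1.26 CPM with SCO and 11.7 ± 1.37 CPM with CAP7, against 32.2 ± 4.04 CPM with rosiglitazone and 6.63 ± 0.861 CPM with vehicle (SD, n = 4). Olr1 was higher with rosiglitazone than with either (1.29 ± 0.107 and 1.77 ± 0.108).

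Respiratory chain genes were higher with rosiglitazone than with SCO in 68 of 77 cases (median 0.34) and than with CAP7 in 16 (median 0.13), with none lower. NRF2 and antioxidant genes went both ways, more often lower. Against SCO 15 of 45 were lower and 8 higher, beside 5.74% and 8.64% over all genes. Against CAP7 12 were lower and 4 higher (Mgst3, 0.72, Cbr3, 0.59, Cbr1, 0.26, and Cat, 0.21), beside 3.48% and 5.09%. Nqo1 was lower than with SCO (-1.08 ± 0.105) and did not differ by the test from CAP7 (-0.12 ± 0.106, 95% interval -0.33 to 0.10), and Ephx1 was lower than with both (-1.33 ± 0.122 and -1.11 ± 0.122). Hmox1 was lower than with both as well (-0.98 ± 0.203 and -1.31 ± 0.204). Camp, which TNF with vehicle had raised, was lower with rosiglitazone than with SCO (-1.19 ± 0.181) and CAP7 (-1.60 ± 0.181). So were Ccl6 (-1.24 ± 0.122 and -0.76 ± 0.122) and Gas6 (-0.78 ± 0.0979 and -1.02 ± 0.0978), both of which TNF with vehicle had lowered. Ccl5 and Ccl2 did not differ by the test from either compound. The 95% intervals of the difference were -0.19 to 0.55 against SCO and -0.44 to 0.29 against CAP7 for Ccl5, and -0.49 to 0.01 and -0.30 to 0.19 for Ccl2. Saa3 and Lcn2 were lower than with CAP7 (-0.69 ± 0.130 and -0.78 ± 0.100). Against vehicle Lcn2 fell by 0.31 ± 0.1000, a call lost without replicate 4 of vehicle (-0.25) or replicate 3 of rosiglitazone (-0.26).

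**Figure D5:**
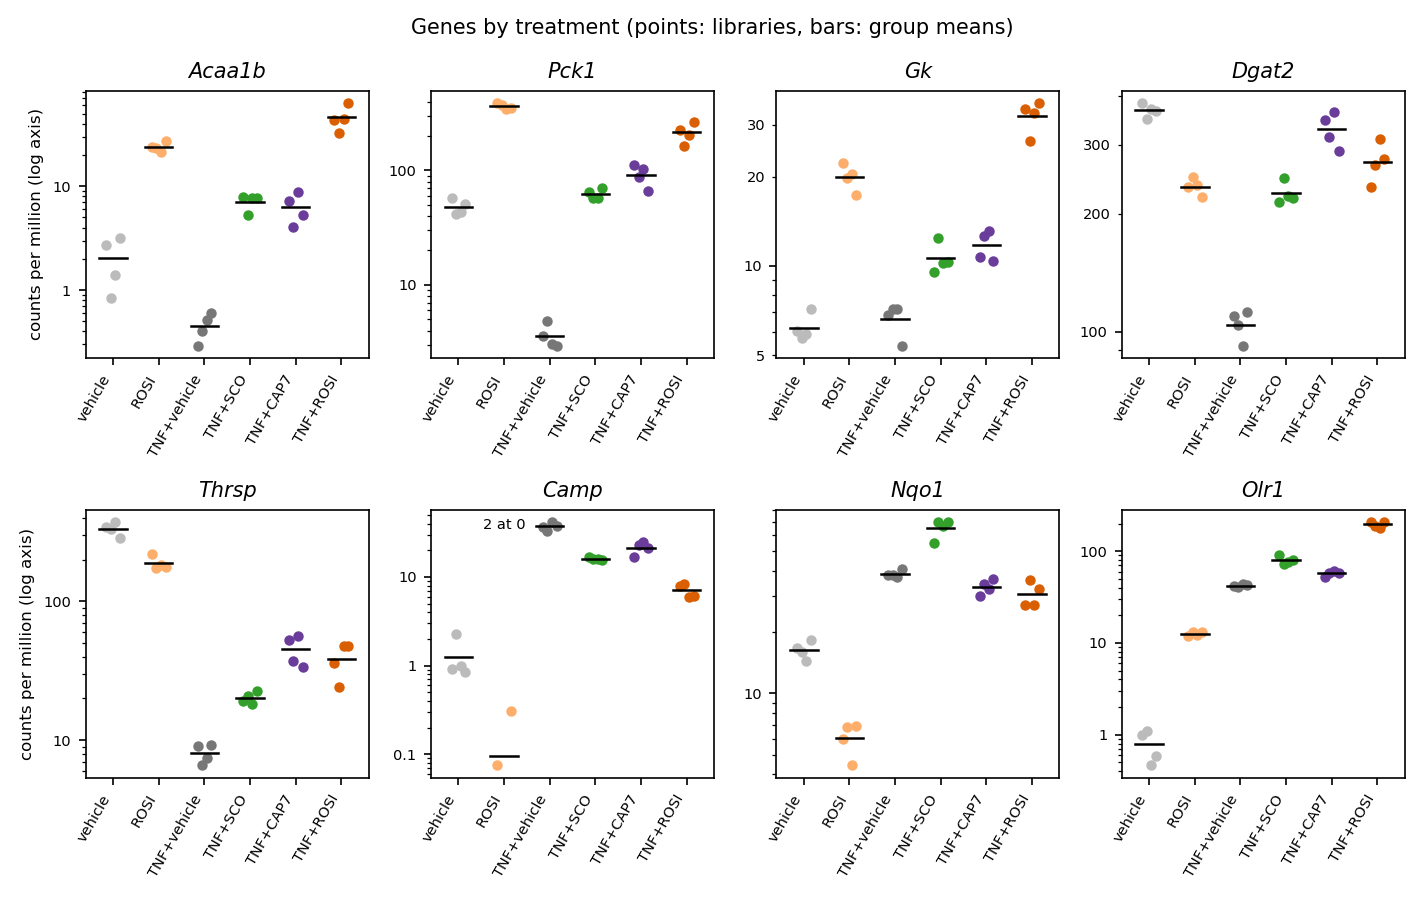
Levels (CPM, log axis) of 8 genes in the 4 libraries of each of 6 groups, vehicle and rosiglitazone without TNF and vehicle, SCO, CAP7 and rosiglitazone with TNF, 1 point per library and a bar at the group mean. Acaa1b, Pck1 and Gk are highest among the TNF groups with rosiglitazone, Dgat2 and Thrsp have their highest mean without TNF or drug, and Camp is lowest among the TNF groups with rosiglitazone.

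PPARγ with RXR binds a direct repeat of the half-site AGGTCA spaced by 1 base, and the sequence windows around the starts of these genes were searched for it as a description. RefSeq (GRCm38.p6, a different build from that of the counts, used here for sequence only) gave windows of 250 bases before to 50 bases after a start for 10061 of the tested genes. The motif AGGTCA, any base, AGGTCA, on either strand, was in 1 of 2082 genes that rose and none of 1799 that fell, and in 0.0396% of all 32851 windows. The looser motif AGGNCA, any base, AGGNCA, which includes the first, was in 8 genes that rose (0.384%), 5 that fell (0.278%) and 13 that were not called (0.210%), and in 0.381% of all windows and 0.258% of tested genes. It was in 3 of 448 genes that rose at least 2-fold (0.670%) and in 2 of 114 that rose at least 4-fold (1.75%), counts too small to read a share from. Of the 209 genes eligible to be named here that had a window 2 held it, Ccl6, the chemokine gene that fell (-2.23), and Clock, which rose (0.41), and their windows are shown for that reason. Capitals mark the match, which lies on the strand opposite to the gene in both.
Ccl6, chr11:83593038-83593337, - strand: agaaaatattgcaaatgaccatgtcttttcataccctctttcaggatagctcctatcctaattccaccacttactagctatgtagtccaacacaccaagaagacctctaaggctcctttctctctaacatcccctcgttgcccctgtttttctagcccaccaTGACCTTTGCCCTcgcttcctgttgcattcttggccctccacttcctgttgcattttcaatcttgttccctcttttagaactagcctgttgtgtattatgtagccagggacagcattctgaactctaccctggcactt
Clock, chr5:76303453-76303752, - strand: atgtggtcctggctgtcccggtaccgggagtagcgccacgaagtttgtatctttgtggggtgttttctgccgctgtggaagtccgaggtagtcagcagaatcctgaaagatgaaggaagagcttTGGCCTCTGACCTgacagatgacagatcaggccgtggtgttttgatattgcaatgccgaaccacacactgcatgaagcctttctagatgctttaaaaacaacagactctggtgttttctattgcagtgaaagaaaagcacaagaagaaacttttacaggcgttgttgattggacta
The match starts 88 bases before the start site in Ccl6 and 126 bases before it in Clock. The levels of Ccl6 are given with the largest decreases above, and Clock read 31.4, 28.2, 31.8 and 35.4 CPM with vehicle and 36.8, 46.8, 43.9 and 40.7 CPM with rosiglitazone (0.41 ± 0.0832). Windows of this length leave out enhancers and distant promoter sites.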

How the data were processed

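RNA of 32 samples of differentiated 3T3-L1 cells (8 treatments, 4 libraries each) was sequenced from transcript 3' ends with QuantSeq, per the labels' protocols. The authors deposited raw counts per gene for all libraries in 1 table. The submitters' processing notes name cutadapt 4.9, STAR 2.7.11b, HTSeq 2.0.5, R 4.4.1, limma 3.60.6 and the build GRCm39. The sources used here give no strand or multi-mapping setting, so antisense, overlapping and near-identical genes can share reads. All columns matched a sample.

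Of 57186 genes 28862 had a count, of which filterByExpr in edgeR kept 14428. Counts were TMM-scaled and fitted with edgeR 4.0.16 (R 4.3.3) quasi-likelihood, 1 mean per treatment over all 32 libraries (24 residual degrees of freedom), with Benjamini-Hochberg adjustment over all 14428 genes and calls at 0.05. Standard errors are the log2 change divided by the square root of F. Intervals are 95% and unadjusted. The script was tested on simulated data. Alternatives were RLE factors, library sizes alone, no filter, at least 5 CPM in 4 libraries, DESeq2 1.42.0, limma-voom 3.58.1, a replicate block, only the compared groups, and leaving out each library. Symbols came from a GRCm38 annotation matched by gene ID, and no gene coordinates were taken from it.

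The comparison, the 40 gene lists and the tests were chosen with earlier results of these data known, so they are no independent support. Genes were named as the 15 largest changes each way at 16 CPM or more and the 5 largest at 2 to 16 CPM (called, groups not overlapping), up to 4 genes of lowest p per list, 83 key genes, the 6 largest each way in the interaction and against SCO or CAP7, and list members against their list's majority where they were 5 or fewer. Cbl, Cbr1, Cbr3, Mgst3, Nfil3, Pla2g2e and Tnip3 fall outside this rule and were named after their values were seen. Promoter windows are printed for genes eligible by the rule that hold the motif. A few genes are not reported here.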

Additional observations from a re-analysis of the deposited data

Results flagged for a closer look

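The effect of rosiglitazone differed with and without TNF, by the edgeR interaction test, in 134 of the 222 genes given with values in the text, 109 of them with a more positive effect with TNF. Over all tested genes the interaction was called in 14.6%, with 10.1% more positive. The 222 genes were chosen partly for large interactions or low p in the main comparison, so their share cannot be compared with that of all genes. For 31 of the 134 genes the effects in both states are discussed, and their differences (effect with TNF minus effect without, log2) are given here. Among genes that TNF with vehicle had lowered, in a comparison that shares the TNF plus vehicle libraries, the differences were 4.05 for B3galt2, 3.09 for Thrsp, 3.07 for Acaa1b, 3.02 for Pck1, 2.19 for Adrb3, 2.03 for Klf15, 2.03 for Dgat2, 1.72 for Scd1, 1.13 for Srebf1, 0.99 for Pparg and 0.85 for Rxra. Negative differences were found for Plin2 (-0.98) and Angptl4 (-1.0), which TNF had raised. The TNF comparison and the interaction share both vehicle groups with opposite sign, which ties their values in part. For genes of insulin response, amino acids and secreted factors the difference was 1.92 for Selenbp1, 0.89 for Bcat2, 0.88 for Irs1, 0.77 for Igf1, 2.23 for Hp and 1.08 for Ccl2. TNF with vehicle had raised Hp and Ccl2, so a positive difference was not limited to genes that TNF had lowered. Immediate early, stress and immune genes divided. Atf3 (-1.85), Hmox1 (-1.83), Olr1 (-1.72), Ppp1r15a (-1.71), Pim1 (-1.65), Pla2g2e (-1.20) and Irf1 (-0.59) had negative differences. Dnajb9 (0.92), Xbp1 (0.78), Ier5 (0.69), Cebpg (0.39) and Klf10 (0.37) had positive ones.

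In 18 of 444 groups of 4 libraries (222 genes in 2 groups each) 1 library lay far from the other 3 by Dixon's test, which chance alone gives in about 1 in 20. Replicate 4 of vehicle was far above the others for Adipoq (3192 CPM), Nrg4 (3.28 CPM) and Vcam1 (966 CPM), and far below for Aqp7 (8.32 CPM). Replicate 3 of vehicle stood apart for Adamts5 (234 CPM), Gm19705 (20.4 CPM), Klf2 (14.5 CPM) and Pdgfra (68.7 CPM), replicate 1 for Csf1 (372 CPM), Klf15 (11.6 CPM) and Slc25a34 (7.88 CPM), and replicate 2 for Slc6a8 (27.7 CPM) and Srebf1 (30.3 CPM). With rosiglitazone, replicate 2 stood apart for Cavin2 (423 CPM), Ccl6 (32.8 CPM), Jak2 (57.4 CPM) and Lpin2 (19.2 CPM), and replicate 3 for Cfd (5177 CPM). The call and direction of each of these 18 genes except Cfd, which had no call, were the same without that library.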

How the results depend on the processing

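For rosiglitazone against vehicle under TNF, 16 alternatives were tried. Of 212 called genes given with values 186 kept their call and direction in all 16. Scaling by library sizes alone, without TMM factors, moved several counts: 4205 genes were lower under TNF, 1649 higher and 4274 lower without TNF, 1782 lower than with SCO, and 465 higher and 756 lower than with CAP7. The interaction counts moved less, to 1393 higher and 715 lower. With only the compared groups in the fit 422 genes were higher than with CAP7. Leaving out single libraries gave 530 to 865 genes lower than with SCO, the lowest without replicate 4 of rosiglitazone, and for the main comparison 2453 to 2701 higher and 2000 to 2286 lower. Cfd and Dlk1, which had no call, changed sign when single libraries were left out: Cfd ranged from -0.071 to 0.071 (above 0 without replicate 4 of vehicle, 0.021, or replicate 3 of rosiglitazone) and Dlk1 from -0.0867 to 0.0077 (above 0 without replicate 4 of rosiglitazone). The cause was not tested. The same-numbered libraries of the 2 groups did not deviate together (correlations -0.0216, -0.0024, 0.0107 and 0.0040), so the numbers were not taken to pair them. A fit with the replicate number as a block gave 2836 genes higher and 2377 lower. Depth limits genes near the filter, such as Elovl3 and Tnip3, whose values rest on few counts, and 4 libraries a group of 1 cell line limit the rest. A gene without a call is not shown to be unchanged.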

Other observations

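Several further genes separated rosiglitazone from the other compounds under TNF. Selenow, a selenoprotein gene, was lower with rosiglitazone than with CAP7 (-1.60 ± 0.0731), at 43.0 ± 2.66 CPM against 130.3 ± 6.44 CPM (SD, n = 4), and averaged 49.0 ± 5.26 CPM with vehicle. Nrep, a neuronal regeneration protein gene, was lower than with CAP7 by 1.18 ± 0.1000. Pdk4, which switches pyruvate dehydrogenase off, was higher than with CAP7 by 1.26 ± 0.137 and higher than with SCO by 1.36 ± 0.138. The proliferin gene Prl2c2, which belongs to a family of near-identical copies and so has uncertain reads, was lower than with SCO by 1.09 ± 0.184. The interferon-induced gene Ifi27l2a was higher than with SCO by 1.55 ± 0.245, at 50.4 ± 5.48 against 17.3 ± 3.66 CPM. Over 44 interferon genes the median difference from SCO was 0.68, beside 0.00028 over all genes. Of the 44, 6 were called higher and none lower, beside 8.64% and 5.74% over all genes. The summed level of the 46 listed varied between the rosiglitazone libraries, at 4749, 3932, 2606 and 4418 CPM.

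Among the 15 largest falls against vehicle that the text above leaves out, Mustn1, a gene of muscle and bone development, went from 34.8, 32.01, 32.8 and 36.7 CPM to 11.5, 13.2, 10.8 and 12.5 CPM (-1.51 ± 0.113), and the uncharacterised genes Gm19705 (-1.73) and 3110039I08Rik (-1.40) fell as well.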
